A study of Homo sapiens with 4 samples.

Results

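The genes examined were those of the 4 small nuclear RNAs (snRNAs) found only in the minor spliceosome, RNU11, RNU12, RNU4ATAC and RNU6ATAC, together with RNU7-1, the gene of the U7 snRNA. They were taken by symbol and are 5 of the 7062 features in the count tables. Levels were measured by small RNA sequencing of total RNA from HEK293T cells, a human embryonic kidney line, with single-end reads of 50 bp. The cells had been transiently transfected with 1.5 µg per well of a plasmid encoding RPB1, the catalytic subunit of RNA polymerase II (Pol II), whose C-terminal tail had 52 repeats of a heptad. The tail was wild type in 52X WT, and in 52X T4A alanine took the place of threonine at the fourth heptad position. Both groups were then selected in α-amanitin at 2.5 µg/ml, a toxin that disables the cell's own Pol II, for 72 h, so that every library comes from drug-selected, transfected cells and no untreated group was compared. Each group had 2 libraries, presented as biological replicates. Whether they came from separate transfections was not stated, and p-values measure only the spread between these libraries.

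The minor spliceosome removes a small, conserved class of introns, often called U12-type. In it U11 pairs with the 5′ splice site and U12 with the branch point, the roles that U1 and U2 have in the major spliceosome. U4atac and U6atac stand in for U4 and U6, with U4atac holding U6atac inactive until the catalytic core forms, while U5 serves both spliceosomes. U7 takes no part in splicing: it pairs with the 3′ end of replication-dependent histone pre-mRNAs and directs their cleavage. U11, U12, U4atac and U7 are transcribed by Pol II from snRNA-type promoters and end in a processing step that couples to that tail, whereas U6atac is made by RNA polymerase III (Pol III).

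Positions are those of the deposited tables, on hg38. RNU12 lies at chr22:42615244-42615393 on the plus strand, with no other RefSeq gene over it. RNU11 lies at chr1:28648600-28648733 on the plus strand, within the span of the long noncoding RNA (lncRNA) gene TAF12-DT. RNU4ATAC lies at chr2:121530881-121531007 on the plus strand, in an intron of CLASP1 on the opposite strand and of CLASP1-AS1 on its own strand. RNU6ATAC lies at chr9:134164439-134164564 on the minus strand, within the RefSeq span of the lncRNA gene LOC124902297. RNU7-1 lies at chr12:6943816-6943878 on the plus strand, over an untranslated region of the protein-coding gene C12orf57 on the same strand and an exon of a lncRNA gene on the opposite strand. No other counted feature overlapped any of the 5 genes. Reads of C12orf57 that cross RNU7-1 cannot be told from reads of U7 in these tables.

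The sequences are shown for short functional elements of U7 and for the stretches that the genes share with pseudogene copies elsewhere in the genome. Reads were also counted at these copies. All sequences were read from GENCODE v44lift37 transcripts by Ensembl identifier. First, the opening 30 bases of RNU7-1 are set against those of RNU7-19P, its most counted copy, at chr3:73027808-73027873 in an intron of PPP4R2. Capitals mark CTCTTTT, within the stretch that pairs with histone pre-mRNA, and AATTTGT, within the Sm-like site that binds the U7-specific protein ring.
RNU7-1: cagtgttacagCTCTTTTagAATTTGTcta
RNU7-19P: gaatgttacagCTCTTTTagAATTTGTcta
Counted from 1 at the 5′ end of RNU7-1, the copy differs in this window by C1G and G3A, and it shares an unbroken run of 40 bases with the gene, from base 4 to base 43. CTCTTTT was present in 58.5% of the 147 annotated U7 copies and in 5.69% of all 1914 GENCODE snRNA transcripts (0.47% on the other strand). By number these were 86 U7 copies against 109 snRNA transcripts. U7 copies were not taken out of the 1914 transcripts. AATTTGT was present in 72.8% of the U7 copies and in 24.7% of all snRNA transcripts (12.2% on the other strand). By number these were 107 U7 copies against 473 snRNA transcripts, so AATTTGT is not particular to U7.

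RNU4ATAC is shown with RNU4ATAC5P, at chr11:122451474-122451599 in an intron of MIR100HG on the opposite strand, and capitals mark their longest shared run, 27 bases from base 12 to base 38.
RNU4ATAC: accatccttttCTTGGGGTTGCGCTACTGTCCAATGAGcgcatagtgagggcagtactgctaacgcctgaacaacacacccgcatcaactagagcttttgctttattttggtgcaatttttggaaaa
RNU4ATAC5P: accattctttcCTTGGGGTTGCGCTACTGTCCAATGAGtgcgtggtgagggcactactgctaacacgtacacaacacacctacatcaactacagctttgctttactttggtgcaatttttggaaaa
The gene holds AATTTTT, the letters of a canonical Sm site, from base 115 to base 121, and the copy holds it from base 114 to base 120. That motif was present in 6.58% of all snRNA transcripts (5.28% on the other strand), from which the U4atac copies were not taken out. It was present in 64.7% of the 17 U4atac copies, and RNU7-1 has no match to it.

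RNU6ATAC is shown with RNU6ATAC2P, at chr5:56297564-56297689, because the genes differ at a single base. Capitals mark their longest shared run, 74 bases from base 53 to the end.
RNU6ATAC: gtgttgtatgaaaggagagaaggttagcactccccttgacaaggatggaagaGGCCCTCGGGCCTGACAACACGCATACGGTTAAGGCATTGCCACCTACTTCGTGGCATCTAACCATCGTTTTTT
RNU6ATAC2P: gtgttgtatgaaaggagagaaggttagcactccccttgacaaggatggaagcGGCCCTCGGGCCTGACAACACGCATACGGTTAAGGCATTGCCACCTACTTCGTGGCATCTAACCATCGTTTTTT
The difference is A52C, counted from the 5′ end. Both end in the run of T that terminates Pol III, and neither holds any of the motifs named above.

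The libraries held between 16180790 and 27370127 counts assigned to features. In HEK293T cells all 8 microRNAs listed as typical of the line were present, with summed levels of 325216 to 366835 CPM (counts per 1000000 of the TMM-scaled library size). Markers of other cell types were low, with liver at 0.253 to 0.947 CPM, blood at 0.617 to 1.52 and neural at 4.36 to 12.1 over the 4 libraries, and none of them was at 0 throughout. The 5 muscle microRNAs summed to 96.5 and 81.6 CPM in the 52X T4A libraries against 30.5 and 33.1 in the 52X WT libraries, and their part in the values below was not tested.

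None of the 4 tested genes was called between 52X T4A and 52X WT cells, and RNU6ATAC had too few counts for the main test. Of the 5 genes, 4 passed the filter on low counts, and 0 of these 4 were called at a false discovery rate (FDR) below 0.05 with a fold change above 1.5 in edgeR's quasi-likelihood test, against 0.135% of all 1480 features tested. At an unadjusted p below 0.05 the count was also 0 of 4, against 10.3% of all features, and DESeq2 likewise called 0. The log2 fold changes, 52X T4A against 52X WT, ran from −0.38 to 0.21 with 2 above and 2 below 0 and a median of 0.05, against a median of −0.05 over all tested features. In 2 of the 4 genes the libraries of one group lay entirely on one side of the other, which 40.1% of all tested features also did. In bulk RNA fewer cells expressing a gene and less RNA per cell cannot be told apart.

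**Figure D1:**
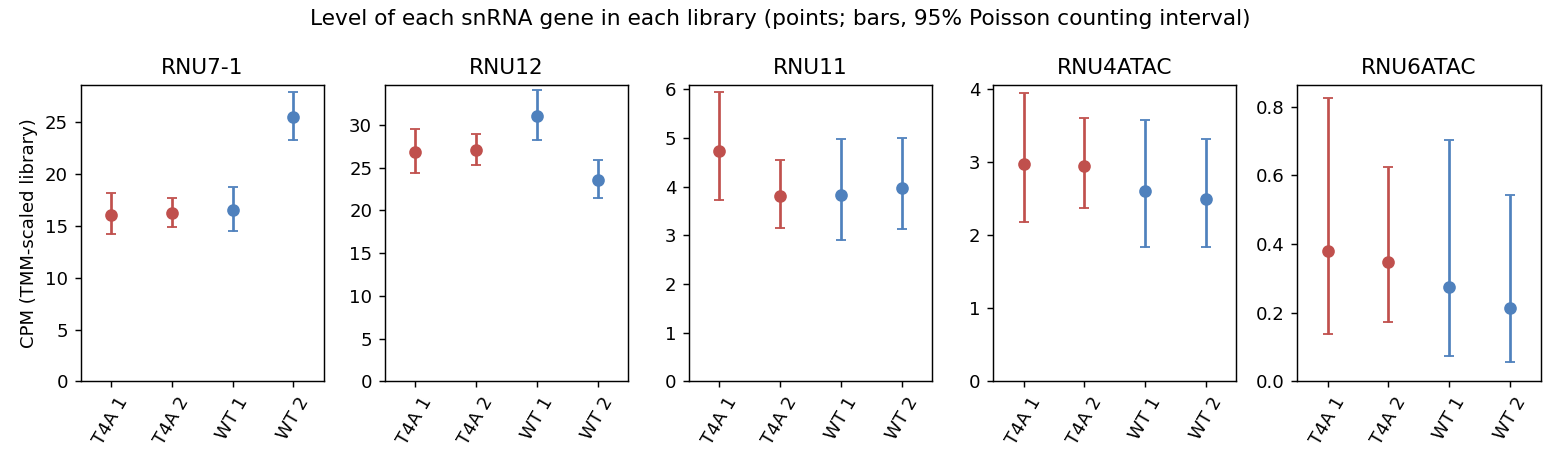
CPM of each gene (y axis, from 0, a separate scale per gene) in the 2 libraries of 52X T4A (red) and the 2 of 52X WT (blue), with bars for the 95% exact Poisson interval of counting error alone. RNU7-1 sits near 16 CPM in 3 libraries and at 25.5 CPM in 52X WT replicate 2.

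U12, which recognises the branch point, was the most counted minor spliceosome snRNA. RNU12 was counted 425 and 854 times in 52X T4A and 453 and 444 times in 52X WT, or 26.8, 27.0, 31.0 and 23.6 CPM. The highest and the lowest library were both 52X WT, with the 52X T4A libraries between them. The group means were 26.9 ± 0.139 CPM for 52X T4A and 27.3 ± 5.27 CPM for 52X WT (SD, n = 2). On the log2 scale the fold change was −0.019 ± 0.31 (SE; FDR = 0.991), with a 95% interval of −0.71 to 0.67, and its sign turned under several other settings, among them scaling by library size alone (0.17).

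U11, which recognises the 5′ splice site and travels with U12 in one particle, was counted at a lower level. RNU11 had 75 and 120 counts in 52X T4A and 56 and 75 in 52X WT, or 4.74, 3.80, 3.84 and 3.98 CPM. The highest was 52X T4A replicate 1, but its counting interval, 3.73 to 5.94 CPM, contained the values of the other libraries. The groups overlapped. The log2 fold change was 0.12 ± 0.34 (SE; FDR = 0.944), with an interval of −0.65 to 0.89, and it turned to −0.058 without 52X T4A replicate 1 and to −0.0075 without 52X WT replicate 1.

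U4atac, the chaperone of U6atac, was the member with the closest replicates. RNU4ATAC had 47 and 93 counts in 52X T4A and 38 and 47 in 52X WT, or 2.97, 2.94, 2.60 and 2.50 CPM. Both 52X T4A libraries lay above both 52X WT libraries, as 18.9% of all tested features did, but the counting interval of each library contained the values of the other 3 libraries. The means were 2.96 ± 0.0170 CPM and 2.55 ± 0.0760 CPM (SD, n = 2), further apart than the replicates of either group. The log2 fold change was 0.21 ± 0.35 (SE; FDR = 0.855), with an interval of −0.57 to 0.996.

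U6atac, which forms the catalytic core, was counted 6 and 11 times in 52X T4A and 4 and 4 times in 52X WT. These counts correspond to 0.379, 0.348, 0.274 and 0.212 CPM. RNU6ATAC therefore fell under the filter and was not tested in the main fit. With no filter its edgeR log2 fold change was 0.60 ± 0.75 (SE; FDR = 0.883). Summed with its pseudogene copies it was 0.50 ± 0.41 (SE; FDR = 0.633). Both 52X T4A libraries were the higher ones, by a margin within counting error. Summed over libraries there were 17 counts against 8, a ratio of 1.50 after scaling, with a counting interval of 0.613 to 4.01. A difference of this size was not detectable at this depth.

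U7 was the member with the largest difference between replicates. RNU7-1 had 255 and 514 counts in 52X T4A and 242 and 481 in 52X WT, or 16.1, 16.3, 16.6 and 25.5 CPM. Only 52X WT replicate 2 stood apart: its counting interval, 23.3 to 27.9 CPM, did not meet that of 52X WT replicate 1, 14.6 to 18.8 CPM, while the other 3 libraries lay within each other's intervals. The group means were 16.2 ± 0.119 CPM for 52X T4A and 21.1 ± 6.34 CPM for 52X WT (SD, n = 2). The groups did not overlap, with 52X T4A lower, as in 21.2% of all tested features. The log2 fold change was −0.38 ± 0.34 (SE; FDR = 0.668), with an interval of −1.14 to 0.37. It came to −0.032 when 52X WT replicate 2 was left out and to −0.75 when 52X WT replicate 1 was left out (FDR = 0.341; over all alternatives the edgeR and DESeq2 FDR ran from 0.341 to 0.981).

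As fold changes, the 95% intervals spanned 0.612 to 1.59 for U12, 0.636 to 1.85 for U11, 0.674 to 1.99 for U4atac and 0.455 to 1.30 for U7. Each interval holds the fold changes compatible with the data at 2 libraries a group, and each includes no change.

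Levels of different genes were compared as CPM per kilobase of feature length, averaged over all 4 libraries. U7 was highest at 296 ± 73.3 (SD, n = 4; range 256 to 405), followed by U12 at 181 ± 20.3 (157 to 207). U11 stood at 30.5 ± 3.28 (28.4 to 35.4), U4atac at 21.7 ± 1.88 (19.7 to 23.4) and U6atac at 2.41 ± 0.595 (1.69 to 3.01). The ranges of neighbours in this order did not overlap. U11 and U12, which act in one particle, were thus counted at unequal levels per length, as were U4atac and U6atac, which pair with each other. These levels count reads of a small RNA library and depend on which lengths of RNA it captured, so they are not molar amounts. They also take the gene loci alone. Pseudogene copies held 916 counts against 225 at RNU4ATAC, and 49 against 326 at RNU11. The order of the genes may therefore depend on how reads matching several loci were treated, which was not stated.

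The functional loci of the major spliceosome snRNAs gave the nearest comparison. On the same scale, the most counted locus was at 372 ± 128 for U2 (RNU2-2P), 164 ± 34.0 for U1 (RNU1-4), 150 ± 98.5 for U5 (RNU5B-1), 24.6 ± 12.9 for U4 (RNU4-2) and 10.1 ± 2.39 for U6 (RNU6-9; SD, n = 4). Each of these values is for a single locus, and all of these snRNAs were also counted at other listed loci. RNU1-1, RNU1-2, RNU1-3 and RNU1-4 had similar CPM within each library, so RNU1-4 may hold only part of the U1 reads. The values therefore do not rank a major snRNA as a whole against a minor one. All 18 loci on the list passed the filter and 0 were called by edgeR, against 0.135% of all tested features. At an unadjusted p below 0.05 there was 1, against 10.3% of all tested features. Of the 18 loci, 5 had log2 fold changes above 0 and 13 below, with a median of −0.12. The range was from −1.001 for RNU5B-1 to 0.74 for RNU2-2P (FDR = 0.448). In 2 of 18 the groups did not overlap, against 40.1% of all tested features. The 4 tested members all lay inside that range, but its lower end rests on 1 library. RNU5B-1 was at 34.5 CPM in WT replicate 1, against 11.9 in WT replicate 2 and 11.1 and 12.1 in the T4A libraries. In RNU5A-1, RNU5F-1, RNU4-1 and RNU4-2 too, WT replicate 1 was highest and WT replicate 2 lay between the T4A libraries. Fold changes of these loci without that library were not tested. Of 7 other Pol III genes listed, 4 were in the tables: RN7SK, the RNA that restrains the elongation factor P-TEFb, and the Y RNAs RNY1, RNY3 and RNY4. RN7SK was listed under 2 identifiers with the same counts, so 5 features were tested. None of these 5 was called by edgeR, with 1 at an unadjusted p below 0.05 (RNY1, −0.75, FDR = 0.460). All 5 had values below 0, as did 798 of 1480 tested features, and their median of −0.11 counts RN7SK under both identifiers. By gene the values were −0.048 for RN7SK, −0.11 for RNY3, −0.64 for RNY4 and −0.75 for RNY1. The Y RNAs were also highest in WT replicate 1. RNY1 was at 627 CPM there, against 364 in WT replicate 2 and 355 and 234 in the T4A libraries. RNY4 was at 55397 CPM, against 31545 in WT replicate 2 and 34778 and 20896 in the T4A libraries.

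**Figure D2:**
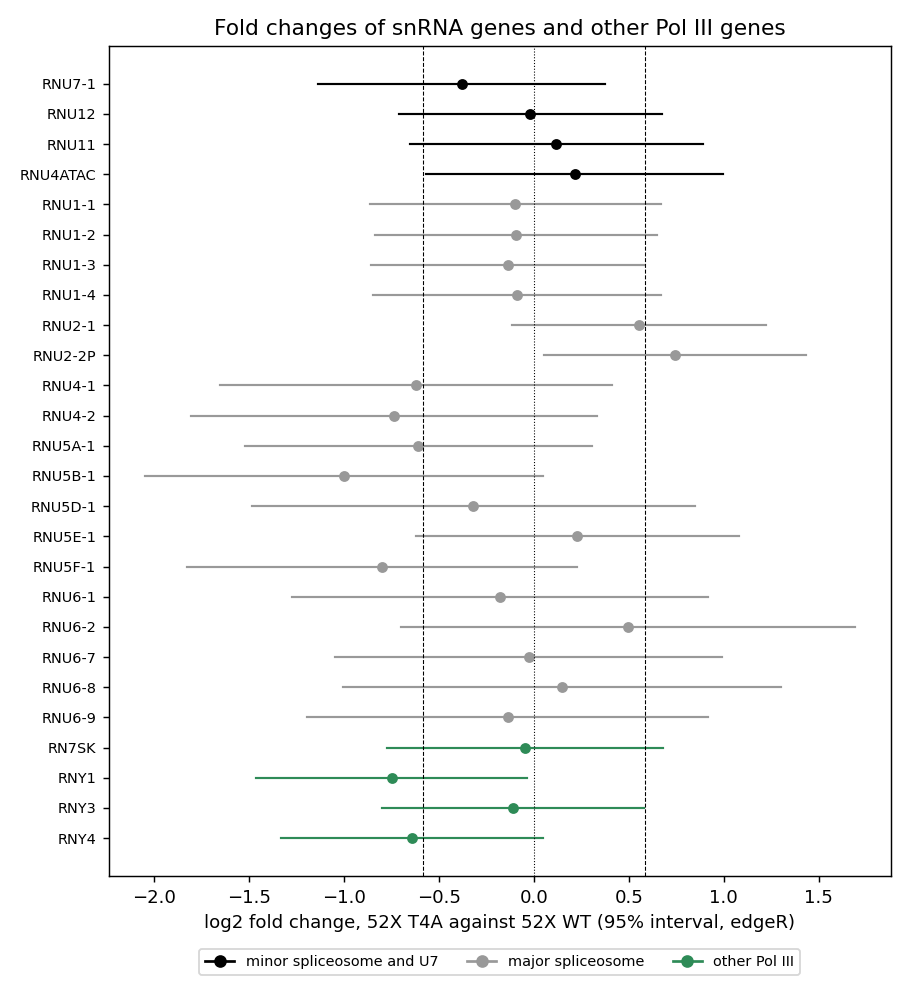
Log2 fold change of 52X T4A against 52X WT (x axis) with its 95% interval from edgeR for the 4 tested members (black), 18 major spliceosome loci (grey) and 4 other Pol III genes (green), where RN7SK is drawn once. Dashed lines mark a fold change of 1.5 in either direction; the intervals of all 4 members cross 0.

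Ratios within a library need no scaling factor, and so each minor spliceosome snRNA was set against its major counterpart, summed over functional loci. The 4 ratios were tested by exact two-sided permutation of the mean log2 ratio, in which 2 libraries against 2 cannot go below p = 0.333. The ratio of U11 plus U12 to U1 plus U2, the snRNAs that recognise introns, was 0.117 and 0.144 in 52X T4A and 0.169 and 0.147 in 52X WT. Both 52X T4A libraries were lower, by 0.28 on the log2 scale (exact p = 0.333, adjusted 0.667), and the U2 loci had the values furthest above 0 among the major snRNAs.

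The ratio of U6atac to U6 was 0.0682 and 0.0894 in 52X T4A and 0.0625 and 0.0460 in 52X WT. Both 52X T4A libraries were higher, by 0.54 on the log2 scale (exact p = 0.333, adjusted 0.667), on no more than 11 U6atac counts a library. The ratio of U4atac to U4 was 0.490 and 0.744 in 52X T4A and 0.232 and 0.522 in 52X WT. These groups overlapped, with a difference of 0.79 on the log2 scale (exact p = 0.667, adjusted 0.889). The difference was 0.21 when 52X WT replicate 1 was left out and 1.38 when 52X WT replicate 2 was left out. The lowest value belonged to 52X WT replicate 1, in which RNU4-2 was at 6.10 CPM against 1.99 to 3.22 CPM in the other 3 libraries.

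U7 was set against the sum of U11, U12 and U4atac, the other members made by Pol II. The ratio was 0.466 and 0.482 in 52X T4A and 0.442 and 0.850 in 52X WT, a difference of −0.37 on the log2 scale (exact p = 1.0, adjusted 1.0). Without 52X WT replicate 2 the difference was 0.10. The other 3 libraries thus held U7 in nearly one proportion to the minor spliceosome snRNAs, and 52X WT replicate 2 held it at a higher one.

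**Figure D3:**
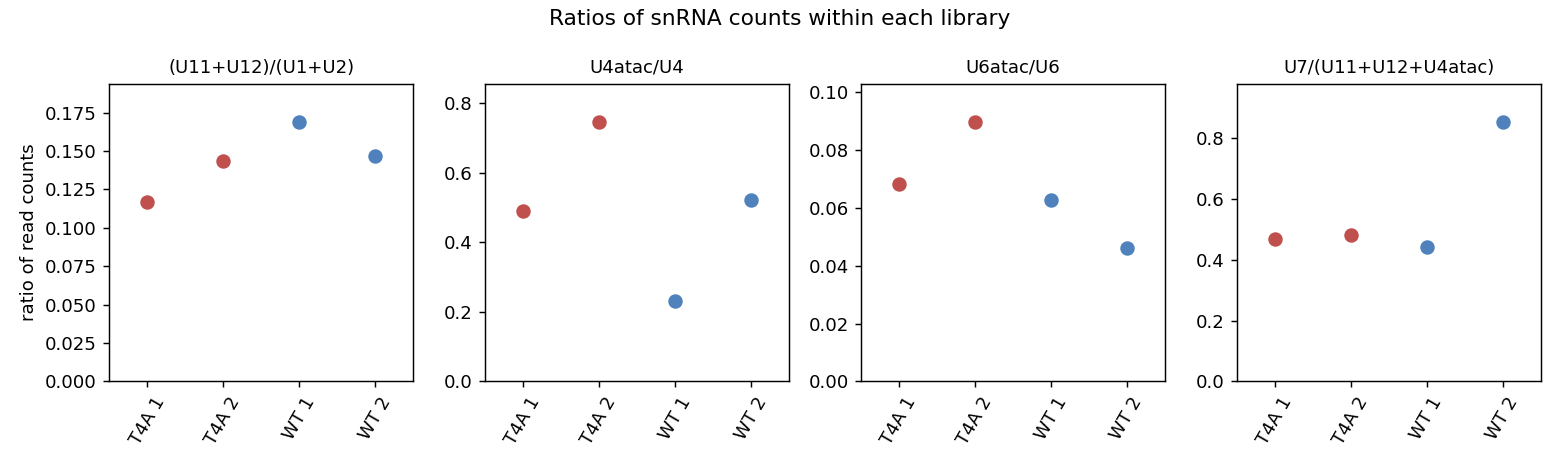
Ratios of read counts within each library (y axis, from 0, no unit), for the 2 libraries of 52X T4A (red) and the 2 of 52X WT (blue). The U7 ratio is 0.442 to 0.482 in 3 libraries and 0.850 in 52X WT replicate 2.

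Together the 4 minor spliceosome snRNAs took 553, 1078, 551 and 570 counts in 52X T4A replicates 1 and 2 and 52X WT replicates 1 and 2. As a share of all counts this was 0.00342%, 0.00394%, 0.00340% and 0.00298%, with exact Clopper-Pearson 95% intervals of 0.00314 to 0.00371%, 0.00371 to 0.00418%, 0.00312 to 0.00370% and 0.00274 to 0.00323%. The means were 0.00368 ± 0.000368% and 0.00319 ± 0.000302% (SD, n = 2), a log2 ratio of 0.21 where the SD between replicates was 0.14. Shares take no TMM factor, and the median log2 fold change of all tested features was 0.14 with library size alone. RNU12 held 425, 854, 453 and 444 of the counts, and its log2 fold change with TMM factors was −0.019. The first 52X T4A library and the first 52X WT library lay within each other's intervals, and intervals cover counting error only.

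The members have 210 annotated pseudogene copies, and reads counted at these copies bear on every value above. RNU7-1 has 147 copies, of which 23 had any count, and the copies held 1447 counts in all against 1492 at the gene. Most of them, 1164, were at RNU7-19P, which had 190 and 404 counts in 52X T4A and 186 and 384 in 52X WT. These were 0.745, 0.786, 0.769 and 0.798 times the counts of RNU7-1 in the same libraries, so the gene and this copy moved together. The 54 copies sharing a run of 20 or more bases with the gene held 1317 counts, in 15 of them, and the 93 copies with shorter runs held 130, in 8 of them.

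RNU12 has 1 copy, RNU12-2P at chrX:47132671-47132826, with 270 and 604 counts in 52X T4A and 276 and 283 in 52X WT. These were 0.635, 0.707, 0.609 and 0.637 times the counts of RNU12. RNU11 had the fewest reads at copies: 2 of its 5 copies had counts, 49 in all against 326 at the gene.

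RNU4ATAC was the gene most outnumbered by its copies. The 17 copies held 916 counts against 225 at the gene. Of these copies 5 each held 73.3 to 87.6% of the gene's own count: RNU4ATAC5P 197, RNU4ATAC13P 180, RNU4ATAC11P 173, RNU4ATAC10P 169 and RNU4ATAC9P 165. Their longest runs shared with the gene, of 20 to 27 bases, lay in different places, from bases 6 to 25 (RNU4ATAC11P) and 12 to 38 (RNU4ATAC5P) through 72 to 94 (RNU4ATAC13P) to the 3′ end with the Sm motif, 107 to 127 (RNU4ATAC10P) and 108 to 127 (RNU4ATAC9P). The 2 copies with longer runs, RNU4ATAC16P (28 bases, 41 to 68) and RNU4ATAC14P (29 bases, 36 to 64), held 14 and 10 counts. All 11 copies with a shared run of 20 or more bases had counts, 915 in all, while 1 of the 6 copies with shorter runs had a single count. This split depends on where the cut lies: RNU4ATAC11P and RNU4ATAC9P share exactly 20 bases. The longest run among U4atac copies with 0 counts was 19 bases. Among the 11, the copies with the longest runs were not those with the most counts.

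RNU6ATAC has 40 copies, of which 15 had counts, 97 in all against 25 at the gene. RNU6ATAC2P, the copy with the single difference shown above, had 6, 9, 4 and 4 counts, the same as the gene in 3 libraries and 2 fewer in 52X T4A replicate 2. All 97 counts were at copies with a shared run of 20 or more bases, of which there are 29, and the 11 other copies had 0.

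Of all copies 8 passed the filter and 0 were called by edgeR, against 0.135% of all tested features. At an unadjusted p below 0.05 there were also 0, against 10.3% of all tested features. The log2 fold changes of the 2 tested U7 copies were −0.42 and −0.74, that of RNU12-2P was 0.09, and those of the 5 tested U4atac copies were 0.11 to 0.50, so only the U12 copy had another sign than its gene. How reads that match several loci were treated was not stated, and copies are not independent measurements of the gene.

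**Figure D4:**
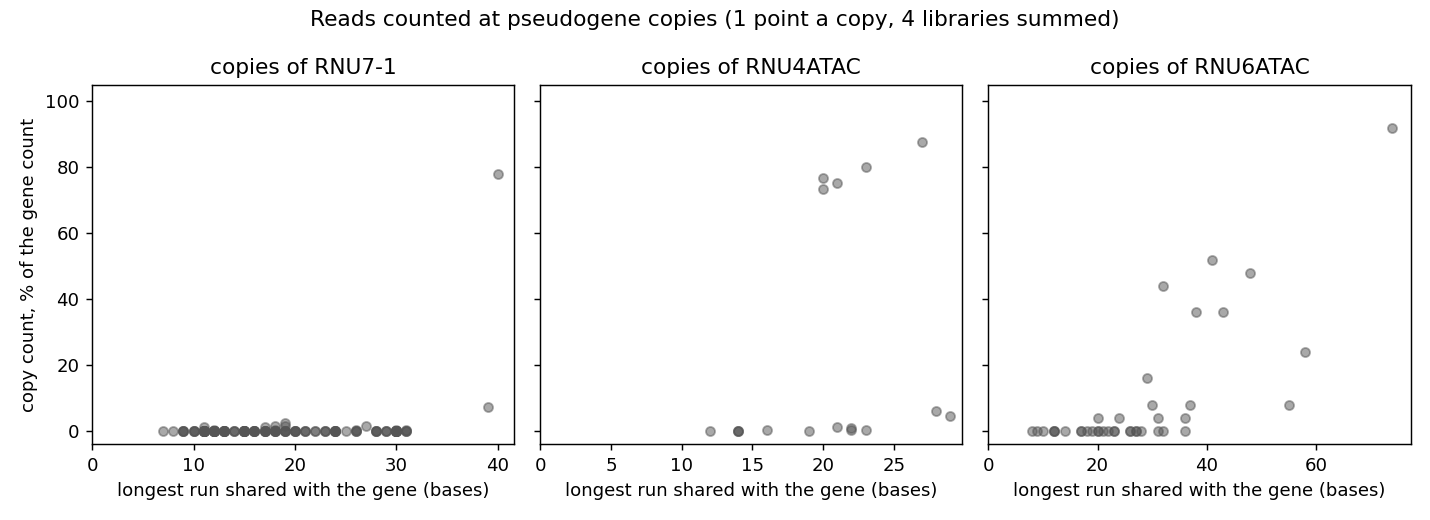
Counts at each pseudogene copy of RNU7-1, RNU4ATAC and RNU6ATAC, summed over the 4 libraries and given as a percent of the gene's own count (y axis), against the longest run of bases shared with the gene (x axis). The copies shown above, RNU7-19P, RNU4ATAC5P and RNU6ATAC2P, stand at 78.0%, 87.6% and 92.0%.

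Features whose pattern over the 4 libraries was most like that of each tested gene were found by the root mean square difference of centred log2 CPM, among the 855 tested features that averaged 50 counts or more and are not spliceosomal snRNA or U7 copies. For RNU7-1 these were MIR3615 (0.05), MIR33A (0.06) and LOC110467522 (0.09). MIR3615 had 4247 and 8853 counts in 52X T4A and 4364 and 8018 in 52X WT, and so shared the high value in 52X WT replicate 2 with U7.

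For RNU12 the nearest were the H/ACA box small nucleolar RNA SNORA50A, listed under 2 identifiers with the same counts (0.02), and the C/D box small nucleolar RNA SNORD28 (0.04). For RNU11 they were RN7SL4P (0.03), MIR143 (0.03) and MIR4746 (0.05). For RNU4ATAC they were the C/D box small nucleolar RNA SNORD14E (0.03) and the microRNAs MIR500A and MIR502 (both 0.04). With 4 libraries many features can share a pattern, and these likenesses are descriptions.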

How the data were processed

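The authors deposited, for each library, a table of raw read counts per feature with no normalization, on hg38; per the submitters' processing notes the tools were cutadapt v4.6, Bowtie2 v2.3.5.1 and featureCounts v1.5.0. Alignment settings, strandedness, adapter and size selection, and the treatment of reads matching several loci are not given in the sources used here. Totals were 16180790 to 27370127 counts, which limits RNU6ATAC to 11 counts or fewer a library.

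Features were named from GENCODE v44lift37 by Ensembl identifier (5579) or from RefSeq GRCh38.p14 by position within 3 bases (950, RNU11 and RNU12 among them), and 533 kept their identifiers. Counts were tested over the whole table with edgeR (v4.0.16; R v4.3.3; quasi-likelihood F test, TMM factors, filterByExpr with a minimum count of 10, Benjamini-Hochberg FDR), and the common biological coefficient of variation was 26.0%. Calls were made at FDR below 0.05 where the fold change also passed 1.5. CPM used TMM-scaled library sizes. The test was checked on simulated counts. Ratios were tested by exact permutation with scipy v1.17.1. Alternatives were other scaling factors, filters, thresholds and fits, DESeq2 v1.42.0, the replicate number as a block, genes summed with copies, and removal of each library.

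Named were the 5 genes, the lists of major spliceosome loci and other Pol III genes (RMRP, RPPH1 and RNY5 were not analysed here), the most counted copies, and the 3 features nearest in pattern to each tested gene. Copies of RNU4ATAC beyond the most counted one, and RNU4-2 in the ratio, were named after their values were seen. The members and lists were chosen with earlier results of these data known.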

Additional observations from a re-analysis of the deposited data

How the results depend on the processing

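In each of the alternatives run, 0 of the tested members were called. Of 60 values of the 4 tested members under alternatives, 51 kept their direction and 9 reversed, with FDR from 0.341 to 1.0. RNU12, at −0.019, turned positive with RLE factors (0.018), upper quartile factors (0.16), library size alone (0.17), no filter (0.011), its copy added (0.024), DESeq2 (0.019) and, at 0.10, without 52X WT replicate 1. Without single libraries RNU12 ranged from −0.20 to 0.10, RNU11, which also turned to −0.0075 without 52X WT replicate 1, from −0.058 to 0.29, RNU4ATAC from 0.15 to 0.24 and RNU7-1 from −0.75 to −0.032. The median of all tested features was −0.05 with TMM, 0.14 with library size alone and 0.13 with upper quartile factors.

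The number of all features called by edgeR was 2, and 9 with library size alone, 29 with no filter, 28 with DESeq2, and 4 (without 52X T4A replicate 2) to 218 (without 52X WT replicate 2) when a library was left out, where the lone library of a group is assumed to vary like the others. The causes were not tested. With the replicate number as a block 18 features were called and no member; deviations of same-numbered libraries correlated at 0.0946 and nothing in the labels pairs them, so they share only a number. Without single libraries the log2 difference of the U7 ratio ranged from −0.84 to 0.10, that of U11 plus U12 to U1 plus U2 from −0.43 to −0.13, that of U4atac to U4 from 0.21 to 1.38 and that of U6atac to U6 from 0.32 to 0.76. With copies added the last was 0.22. The log2 ratio of summed shares was 0.43 with features other than microRNAs as the denominator, against 0.21. Counts of 4 to 11 a library limit RNU6ATAC.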
